A study of Mus musculus with 34 samples.

Results

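Krt7, Krt8, Krt18, Krt19 and Krt20, the keratins of simple epithelia, were followed through a mouse series on chemical reprogramming, in which fibroblasts gave rise to a XEN-like state (named for the extraembryonic endoderm) and from it to neuronal and hepatocyte-like cells. The members were taken by gene symbol, and all 5 were listed in each of the 5 deposited expression tables, which held between 20458 and 48278 genes. Poly-A mRNA of 34 libraries had been sequenced, and values were in FPKM, in which fragments are scaled by the length of a gene and the size of a library. Each table stood on its own scale, so groups were compared within a table and values from different tables were only set side by side.

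The first of these, called the XEN-like table here, had 16 libraries. Embryonic fibroblasts had 2 and colonies in the XEN-like state had 8. Line F25 had 3 (libraries 1, 2 and 3 at passages 5, 8 and 13), line s39 had 2 (library 1 at passage 17, library 2 at passage 3), and 1 library at passage 8 was labelled eXEN, described as derived with chemicals and with embryonic XEN cells as its source. The hepatic table had 10 libraries, made up of 4 from hepatocyte-like cells that had passed through the XEN-like state, 2 from fibroblasts, 2 from hepatic tissue and 2 from hepatocytes. One neuronal table had a single library each of brain, primary cortical neurons, fibroblasts, induced colonies positive for the TauEGFP reporter and neuronal cells made with a treatment named FICB. The other had a second library of TauEGFP colonies, also labelled P2 XEN-derived, and a second of primary neurons, and a library labelled P24 (XEN-derived neuronal cells) had a table to itself. The strain label was Mapttm2(EGFP)Klt/J, an EGFP allele at the Mapt (Tau) locus, for all samples but the primary neurons, which were C57BL/6. The labels named neither the chemicals nor animal ages, and did not say whether a line was 1 clone or which libraries shared an animal or culture.

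Keratins are the intermediate filament proteins of epithelial cells, and a filament needs a type I and a type II partner in equal amounts. Krt8 (type II) and Krt18 (type I) are the first pair made in the embryo, in trophoblast and endoderm, and remain the main pair of hepatocytes. Krt19 (type I) and Krt7 (type II) are added in ducts such as those of the liver and pancreas, and Krt20 (type I) in differentiated intestinal cells, urothelium and Merkel cells. Fibroblasts build their intermediate filaments mainly from vimentin.

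In mm10, with the GENCODE vM21 annotation, the type II genes Krt7 (ENSMUSG00000023039, chromosome 15, 101411043 to 101430313, plus strand) and Krt8 (ENSMUSG00000049382, chromosome 15, 101996698 to 102004482, minus strand) lay in one cluster. The type I gene Krt18 (ENSMUSG00000023043, chromosome 15, 102028180 to 102032027, plus strand) lay in the same cluster, 23698 bases beyond the start of Krt8 and transcribed away from it. Krt19 (ENSMUSG00000020911, 100140810 to 100148665) and Krt20 (ENSMUSG00000035775, 99428403 to 99438150) lay on the minus strand of chromosome 11, in the type I cluster.

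The promoter windows of 4 members are shown because Krt8 and Krt18 were high in the same groups, while Krt7 and Krt20 were high in fewer of them. Each runs 5′ to 3′ on the strand of its gene, from 250 bases before to 50 bases after the start given by RefSeq (build GRCm38.p6), at chr15:101412153-101412452 (plus) for Krt7, chr15:102004293-102004592 (minus) for Krt8, chr15:102027966-102028265 (plus) for Krt18 and chr11:99438104-99438403 (minus) for Krt20. Krt19 had no entry in the table of promoters. Capitals mark exact matches to any of 4 motifs, which were searched for on both strands. The first was the TATA box found near the start of some genes, spelled TATAAA. The second was the GC box to which Sp1 family factors bind, and its letters on the forward strand were CCGCCC. The others were a site for GATA factors, among them the endoderm regulators Gata4 and Gata6, which was read as GATAA, and a site for the AP-1 dimer of Fos and Jun proteins.
Krt8: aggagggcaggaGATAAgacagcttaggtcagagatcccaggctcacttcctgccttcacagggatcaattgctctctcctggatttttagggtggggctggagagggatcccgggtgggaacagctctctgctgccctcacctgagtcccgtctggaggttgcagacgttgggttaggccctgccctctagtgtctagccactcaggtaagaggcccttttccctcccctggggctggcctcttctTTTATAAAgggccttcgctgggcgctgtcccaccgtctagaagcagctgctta
Krt18: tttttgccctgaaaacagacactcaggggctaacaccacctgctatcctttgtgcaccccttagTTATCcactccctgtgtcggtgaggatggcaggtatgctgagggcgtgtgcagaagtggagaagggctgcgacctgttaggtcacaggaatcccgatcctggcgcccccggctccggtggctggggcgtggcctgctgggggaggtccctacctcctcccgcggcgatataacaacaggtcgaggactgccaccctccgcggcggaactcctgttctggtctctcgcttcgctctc
Krt7: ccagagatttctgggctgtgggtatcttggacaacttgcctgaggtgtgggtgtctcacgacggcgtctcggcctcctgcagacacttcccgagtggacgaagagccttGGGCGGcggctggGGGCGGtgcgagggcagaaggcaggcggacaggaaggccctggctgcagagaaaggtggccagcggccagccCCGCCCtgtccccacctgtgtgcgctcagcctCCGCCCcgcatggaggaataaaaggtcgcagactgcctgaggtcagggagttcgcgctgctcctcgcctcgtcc
Krt20: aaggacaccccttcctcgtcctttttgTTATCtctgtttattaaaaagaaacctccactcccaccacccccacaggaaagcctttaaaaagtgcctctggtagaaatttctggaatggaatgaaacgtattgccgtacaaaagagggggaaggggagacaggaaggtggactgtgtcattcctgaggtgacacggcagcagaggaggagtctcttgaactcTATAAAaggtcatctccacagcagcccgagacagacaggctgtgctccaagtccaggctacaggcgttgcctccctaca
The Krt8 window held TATAAA on both strands in 1 overlapping match around the RefSeq start, and GATAA from position -238 to -234. The Krt18 window held 1 GATA match, on the other strand, from -186 to -182. Krt7 held 4 GC boxes and no other match, and Krt20 held TATAAA from -29 to -24 and a GATA match from -223 to -219 on the other strand. Of 27025 mouse promoter windows of this length, 14.2% held the TATA letters, 35.9% the GC box, 25.8% the GATA site and 7.93% the AP-1 site TGANTCA, which none of the 4 windows held. A match is a description of these letters only.

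Between 10312 and 14466 genes per library reached 1 FPKM. Depth was not stated, and the spacing of the low values gave no estimate of it that could be relied on. Some libraries went against their labels. The library labelled P24 listed the neuronal genes Map2 at 0.767, Syt1 at 0.174 and Rbfox3 at 0 FPKM, and Alb, the albumin gene, at 1429. The library labelled primary neurons 2 listed Snap25 at 0.0549 and Dcx at 0.476 against 2688 for Gfap, an astrocyte gene, and 1150 for C1qa, a macrophage gene. Hepatocytes 1 and hepatic tissue 2 both listed Alb at 0, while hepatocytes 2 and hepatic tissue 1 listed 51325 and 44789 FPKM, and over 12007 genes each library correlated best with one of the other label (Spearman's rho 0.950 and 0.916, against 0.864 between the hepatocyte libraries and 0.872 between the tissue libraries). An exact 0 in these liver libraries may therefore be a failed estimate, and members at 0 are given as listed at 0.

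The first comparison asked how the keratins of XEN-like colonies differed from those of fibroblasts. Krt8 and Krt18 were near 1 FPKM in fibroblasts and 533 FPKM or more in every colony, Krt19 was also called higher but with fibroblast libraries that disagreed, and Krt7 and Krt20 stayed low in most colonies. A gene was called at an adjusted p under 0.05 (limma, Benjamini-Hochberg over all genes tested) and a log2 difference of at least 1 on the log2(FPKM + 1) scale, which understates changes of low genes. In these bulk samples, fewer cells of a type and less RNA per cell cannot be told apart.

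Krt8 lay at 0.770 and 1.32 FPKM in fibroblasts 1 and 2. In the 8 colonies it lay between 533 and 1297 FPKM, with a median of 726 and a mean of 803 ± 278 (SD, n = 8). The groups did not overlap, and the lowest colony was far above the higher fibroblast library. The difference was 8.57 ± 0.32 (log2, SE) with an adjusted p of 7.92e-11 (limma). By FPKM, Krt8 ranked between 116 and 177 among 20458 genes in the colonies.

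Krt18 lay at 1.04 and 2.01 FPKM in the fibroblasts and between 586 and 1805 FPKM in the colonies (median 873, mean 982 ± 388, SD, n = 8). Again all colonies were far above both fibroblast libraries, by 8.54 ± 0.36 (log2, SE; adjusted p = 3.12e-10, limma), and Krt18 ranked between 104 and 145. Colony 8 was the highest in both partners and colony 3 the next. Over the 8 colonies the log2 levels of Krt8 and Krt18 had a Pearson correlation of 0.929, a description of libraries that share their scaling to library size.

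Krt19 gave a less even picture. Fibroblasts 1 listed 136 FPKM and fibroblasts 2 listed 2.89. Colonies 1 to 8 listed 237, 385, 465.5, 361, 318, 19.0, 310 and 559.5 FPKM (mean 332 ± 161, SD, n = 8). Colony 6 was thus below fibroblasts 1, and the other 7 colonies were above both fibroblast libraries. The difference of 3.67 ± 1.06 (log2, SE) was called with an adjusted p of 0.0115 (limma). It rested on fibroblasts 2: without that library it was 1.36 with an adjusted p of 0.483, and on the flow cells whose codes begin with HVN, where only fibroblasts 1 was run, it was 1.36 with an adjusted p of 0.138. On flow cell HJMKLALXX, where only fibroblasts 2 was run, it was 5.75 with an adjusted p of 0.0284. Flow cell and fibroblast library cannot be told apart here.

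Fibroblasts 1 did not carry the wider epithelial set with its Krt19. It had 4 of 18 epithelial adhesion and polarity genes at 1 FPKM or more, with a summed level of 26.8 FPKM, against 7 of 18 and 75.3 FPKM in fibroblasts 2 and 15 to 18 of 18 and 307 to 1376 FPKM in the colonies, and it listed Epcam at 0. Of mesothelial markers, 1 of 6 reached 1 FPKM in each fibroblast library, with sums of 13.6 and 1.6 FPKM; Wt1 was at 13.1 FPKM in fibroblasts 1 while Upk3b was listed at 0 in both and Msln lay at 0.234 and 0.276. Whether cells of that kind contributed was not tested. Fibroblasts of the other tables listed Krt19 at 1.12 and 0.992 FPKM (hepatic) and 7.72 FPKM (neuronal).

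Krt7, the ductal type II keratin, lay at 0.405 and 1.03 FPKM in fibroblasts and at 1.502 or less in 6 of 8 colonies. Colony 4 listed 6.79 and colony 5 listed 10.5 FPKM, apart from the rest. The groups overlapped and the difference of 0.38 ± 0.63 (log2, SE) was not called (adjusted p = 0.659, limma; 95% interval -0.98 to 1.73). The same 2 colonies listed Cldn4, a tight junction protein, at 187 and 131 FPKM against at most 37.5 in the other 6; this gene was chosen after its values were seen. Krt20 was listed at 0 in 6 colonies and at 0.217 and 0.150 in colonies 4 and 5, while fibroblasts 1 and 2 listed 0.195 and 6.82 FPKM, and it failed the filter on low values (1 FPKM in at least 2 libraries).

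Of the 5 members, 4 passed the filter and 3 were called higher, where 34.6% of the 14012 genes tested were called in either direction and 17.8% higher. Read against that background, the count says little, and the sizes of the Krt8 and Krt18 differences carry the result. They stayed after scaling each library by its median ratio, which moved the median difference over all genes from 0.16 to -0.01, at 8.45 for Krt8 and 8.41 for Krt18.

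**Figure D1:**
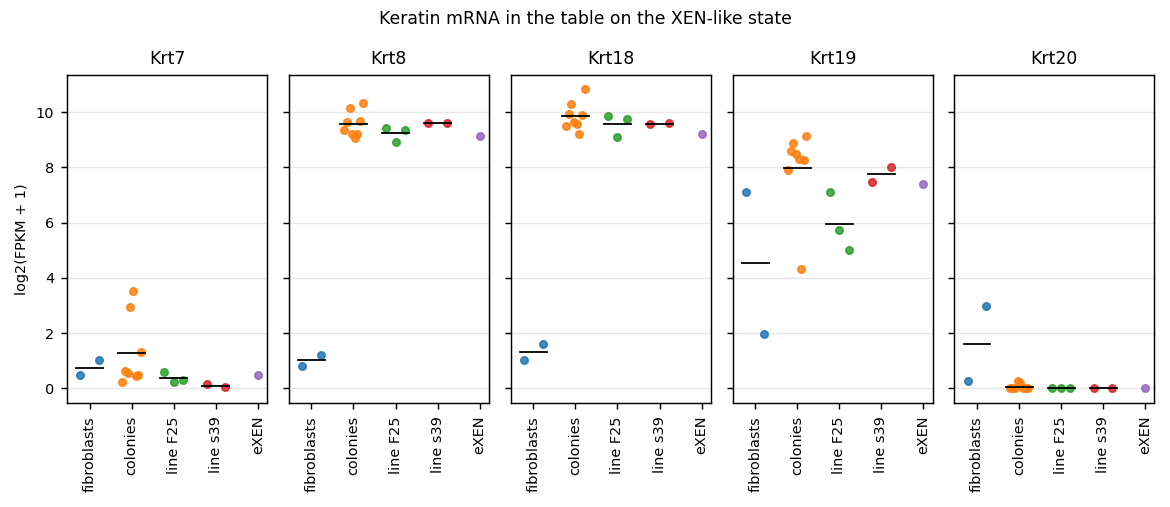
Levels of the 5 keratins in the 16 libraries of the XEN-like table, as log2(FPKM + 1) on the vertical axis, with 1 point per library and a bar at the group mean where a group has more than 1 library. Krt8 and Krt18 sit near 9 or above in every XEN-like and eXEN library and below 2 in fibroblasts, Krt19 has fibroblasts 1 (136 FPKM) among the XEN-like libraries and colony 6 (19.0 FPKM) below them, and Krt7 rises above 2 only in colonies 4 and 5.

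The lines F25 and s39, set against the same fibroblasts, had Krt8 and Krt18 levels near those of the colonies. Krt8 lay at 680, 483 and 650 FPKM in F25 libraries 1 to 3 and at 777 and 785 in s39 libraries 1 and 2. All 5 were above both fibroblasts, by 8.36 ± 0.36 (log2, SE; adjusted p = 6.45e-10, limma). Krt18 lay at 917, 544 and 867 FPKM in F25 and 787 and 750 in s39, a difference of 8.29 ± 0.41 (adjusted p = 2.37e-09, limma). These were 2 of 4 members tested, where 33.8% of genes were called in either direction and 19.1% higher. Krt7 lay at 0.0354 to 0.525 FPKM in the lines and was not called (adjusted p = 0.97, limma), and Krt20 was listed at 0 in all 5. After median-ratio scaling, which moved the all-gene median of this comparison from 0.19 to -0.06, the calls over all genes went from 2674 higher and 2067 lower to 1929 higher and 2690 lower, and Krt8 and Krt18 stood at 8.16 and 8.08.

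Krt19 differed between the lines by library. F25 libraries 1, 2 and 3 listed 135, 51.6 and 31.5 FPKM at passages 5, 8 and 13. The s39 libraries listed 178 FPKM at passage 3 and 259 at passage 17. The F25 libraries were thus all below both s39 libraries and below fibroblasts 1; the value was lowest at the highest passage in F25 and highest at the higher passage in s39, and no test of passage was made. Lines against fibroblasts gave 1.49 ± 1.203 (log2, SE; adjusted p = 0.354, limma), and without fibroblasts 2 the sign turned to -0.25. F25 against s39 gave -1.81 ± 1.22 (adjusted p = 0.621, limma; 95% interval -4.41 to 0.79); of 4 members tested none was called, where 0.214% of genes were (0.0999% higher, 0.114% lower).

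Lines and colonies were compared with each other in the same model. None of the 4 members tested was called, where 0.0856% of genes were (0.0357% lower). Krt19 gave the widest difference, -2.18 ± 0.94 (log2, SE, with a 95% interval of -4.19 to -0.17 and adjusted p = 0.328, limma). The 5 libraries of F25 and s39 lay at 131 ± 93.2 FPKM (SD), against 332 ± 161 in the 8 colonies. The 95% interval was -0.82 to 0.39 for Krt8 and -0.93 to 0.43 for Krt18, and without colony 1 these reached down to -1.02 and -1.15. The eXEN library listed Krt8 at 558, Krt18 at 584, Krt19 at 166, Krt7 at 0.409 and Krt20 at 0 FPKM, and its Krt8, Krt18 and Krt19 each lay within the range of the colonies and lines together.

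Ordered by group mean, Krt8 ran from colonies (803) over s39 (781), F25 (605) and eXEN (558) to fibroblasts (1.05 FPKM), and neighbours above the fibroblasts differed by less than the spread of the colonies. For Krt18 the order was colonies (982), F25 (776), s39 (768), eXEN (584) and fibroblasts (1.53), with the same remark. For Krt19 it was colonies (332), s39 (218), eXEN (166), F25 (72.8) and fibroblasts (69.3), and among these the colonies were called against the fibroblasts, a call that fibroblasts 2 decided, while the lines were not.

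Seen as a pool, the 5 keratins summed to 1201 to 3664 FPKM in the colonies and 1079 to 1823 in the lines. Krt8 made up 32.8% to 49.6% of the pool in colonies, Krt18 44.0% to 49.3%, and Krt19 14.7% to 20.4% in 7 of them against 1.58% in colony 6. In F25 the share of Krt19 was 7.81%, 4.78% and 2.03% at passages 5, 8 and 13. The ratio of Krt8 to Krt18 kept between 0.697 and 1.05 over all 14 XEN-like and eXEN libraries (mean 0.860 ± 0.117, SD). Adding Krt7 to Krt8, and Krt19 and Krt20 to Krt18, type II mRNA was 0.502 to 0.986 times type I mRNA, so type I was in excess in all 14.

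**Figure D2:**
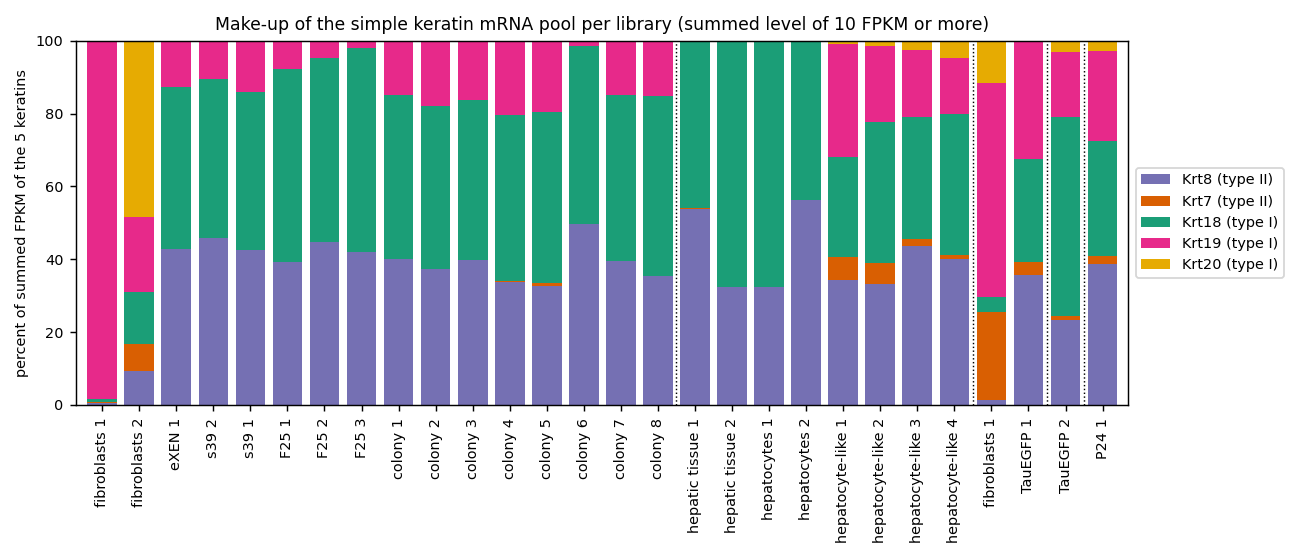
Make-up of the keratin mRNA pool in each library whose 5 keratins summed to 10 FPKM or more, in percent of that sum, with dotted lines between tables (XEN-like, hepatic, first neuronal, second neuronal, P24). Krt8 and Krt18 fill nearly the whole bar in the 4 liver libraries, share it with Krt19 in XEN-like libraries, and leave room for Krt19, Krt7 and Krt20 in hepatocyte-like cells, TauEGFP 1 and P24.

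The partners of keratin filaments were read from lists of related genes. Of 18 epithelial adhesion and polarity genes, 17 were higher in colonies than in fibroblasts and none lower, with a median log2 difference of 3.41 against 0.16 over all genes. They included Epcam (6.95) and Cdh1, the E-cadherin of adherens junctions (5.68, from 0.078 and 0.515 FPKM in fibroblasts), while Tjp1 was not called (0.65). Of 13 epithelial transcription factors and splicing regulators 10 were higher and none lower (median 2.93), among them Elf3 (6.92), the splicing regulator Esrp1 (4.85) and Grhl3 (4.34). Of 13 genes tested of desmosomes and hemidesmosomes, the junctions that anchor keratin, 3 were higher (the cadherin Dsg2 at 4.29, the linker Dsp at 3.48 and Pkp4 at 2.57), 1 was lower (the linker Plec at -2.44) and 9 were not called. Their median was 0.49, and 17.8% of all genes were called higher. Against fibroblasts the lines had 13 of 18, 10 of 13 and 5 of 13 higher in the same lists, with 1 lower (Plec) in the last. In that comparison 19.1% of all genes were called higher.

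Other intermediate filament genes moved both ways. Vim, the vimentin of fibroblasts, was at 3762 and 1540 FPKM in fibroblasts and 84.2 to 660 in colonies, with a log2 difference of -3.12, and Des and Lmna were also lower. Lmnb1 (3.93), Lmnb2 (1.76) and the neurofilament genes Nefl (5.19), Nefm (3.19) and Nefh (2.99) were higher, so 5 of 10 were higher and 3 lower. Of all genes, 17.8% were called higher and 16.8% lower. Of 29 other keratins listed there, 7 reached 1 FPKM anywhere and 1, Krt23, reached 10; it was at 5.28 to 33.2 FPKM in colonies against 0.413 and 0.196 in fibroblasts (log2 difference 3.92, adjusted p = 2.89e-05, limma), and it was the 1 of 5 other keratins tested that was called. Over all genes, 34.6% were called in either direction. The stratified markers Krt14 and Krt10 were not called.

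Colony 6, low in Krt19, was also the lowest of the colonies in several epithelial genes, chosen after their values were seen. It listed Cdh1 at 6.70 FPKM against 48.7 to 128 in the others, Cldn7 at 2.02 against 24.2 to 202, Cldn4 at 2.37 against 11.5 to 187 and Grhl3 at 1.76 against 13.8 to 62.2. Its Krt8 (596 FPKM) was within the range of the others, while its Krt18 (586) was the lowest, against 730 to 1805 in the others. Epcam was 85.9, and the endoderm regulator Gata4 was 292, within the range of the others. Summed marker levels of other cells went several ways in colony 6. Its trophoblast sum (12.2 FPKM) and cholangiocyte sum (299.5) were the lowest of the colonies, and its fibroblast sum (164) lay within their range. Its hepatocyte sum (1.88 FPKM), neuronal sum and endothelial sum were the highest, but no more of these markers were reached than in some other colonies. The 7 neuronal markers summed to 51.9 FPKM against 1.06 to 9.36 in the other colonies. Only 1 of 7 reached 1 FPKM, as in colonies 1 to 5 and 7. The 6 endothelial markers summed to 34.1 FPKM against 0.889 to 11.3, with 2 of 6 at 1 FPKM, as in colonies 2, 3, 5 and 7. F25 libraries 1, 2 and 3 had endothelial sums of 18.8, 16.6 and 35.8 FPKM. The part of such cells in the Krt19 value was not tested. F25 libraries 2 and 3, the other XEN-like libraries with Krt19 under 100 FPKM, listed Cldn4 at 0.152 and 0.482 and Cldn7 at 0.203 and 0.0872.

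Genes with the pattern most like each member were named by Pearson correlation of log2(FPKM + 1) over the 16 libraries, among 9577 genes reaching 10 FPKM and leaving out the members themselves. Krt8 and Krt18 were closer to each other (0.998) than to any of these genes. The libraries fall into fibroblasts and the rest and share their tables and scaling, and the values describe likeness across both groups together. Outside the members, the nearest to Krt8 were Pitx1 (0.991), Bex1 (0.990), Gata4 (0.986), Eif3l (0.984) and Eomes (0.982), and to Krt18 they were Bex1 (0.991), Pitx1 (0.988), Bex4 (0.986), Eif3l (0.985) and Cyb561 (0.979). Krt7, which varied among colonies, had among its nearest Fut2 (0.943), Dmkn (0.907), Prr15l (0.877) and Ckmt1 (0.877). Krt19 had lower values, led by Nudt21 (0.926), Proser2 (0.911), Rpp38 (0.906), Tmem107 (0.889) and Rps6 (0.888).

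The hepatic table asked how the XEN-derived hepatocyte-like cells stood against fibroblasts and against the liver. All 5 keratins were called higher in hepatocyte-like cells in all 3 comparisons. Of all genes tested, 11.4% were called higher against fibroblasts, 41.3% against hepatocytes and 42.3% against tissue. Krt8 and Krt18 were far above hepatocytes, which make them too, and Krt19, Krt7 and Krt20, near or at 0 in the liver libraries, were high.

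Krt8 was at 2392, 2006, 1839 and 3955 FPKM in hepatocyte-like libraries 1 to 4 (mean 2548 ± 966, SD, n = 4). Hepatocytes 1 and 2 listed 72.8 and 180, hepatic tissue 1 and 2 listed 227 and 76.6, and the fibroblasts 0.346 and 0.844. All 4 hepatocyte-like libraries were above every other library, and Krt8 ranked between 15 and 64 among 48278 genes in them. The log2 differences were 10.59 ± 0.52 (SE) from fibroblasts (adjusted p = 1.63e-06), 4.40 ± 0.52 from hepatocytes (adjusted p = 0.000168) and 4.19 ± 0.52 from tissue (adjusted p = 0.000221; limma).

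Krt18 was at 1914, 2340, 1416 and 3802 FPKM (mean 2368 ± 1028, SD, n = 4), against 152 and 140 in hepatocytes, 194 and 160 in tissue and 2.11 and 1.63 in fibroblasts. Hepatocyte-like library 4 was the highest in both partners and library 3 the lowest. The differences were 9.60 ± 0.37 (log2, SE) from fibroblasts, 3.92 from hepatocytes (adjusted p = 4.23e-05) and 3.65 from tissue (adjusted p = 6.64e-05; limma). Between hepatocytes and tissue neither partner was called, and of the 5 members tested none was, where 0.00639% of genes were.

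Krt19 was at 2157, 1255, 776 and 1529 FPKM in hepatocyte-like cells (mean 1429 ± 577, SD, n = 4), above Krt18 in library 1 and below it in the other 3. Fibroblasts listed 1.12 and 0.992, tissue 0.530 and 0.532, and hepatocytes 0.168 and 0. No library outside the hepatocyte-like cells reached 2 FPKM. The difference was 9.35 ± 0.37 (log2, SE) from fibroblasts (adjusted p = 6.68e-07), 9.77 from tissue (adjusted p = 4.03e-07) and was called against hepatocytes too (adjusted p = 2.95e-07; limma), where the size depends on the pseudocount.

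Krt7 was at 447, 334, 85.8 and 126 FPKM (mean 248 ± 172, SD, n = 4). Fibroblasts listed 0.335 and 3.27, tissue 0.282 and 0.123, and both hepatocyte libraries listed it at 0. The groups did not overlap, and libraries 1 and 2 were well above 3 and 4, which were run on another flow cell. The difference from fibroblasts was 6.40 ± 0.69 (log2, SE; adjusted p = 0.000152) and from tissue 7.39 (adjusted p = 4.48e-05), and the call against hepatocytes had an adjusted p of 3.37e-05 (limma).

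Krt20, the keratin of intestinal and urothelial surface cells, was at 70.6, 82.2, 104 and 473 FPKM (mean 183 ± 194, SD, n = 4). It was listed at 0 in all 4 liver libraries and at 0.748 and 1.498 in fibroblasts. Library 4 was more than 4 times any other, and it was 1 of the lower libraries for Krt7. The difference from fibroblasts was 5.97 ± 0.67 (log2, SE; adjusted p = 0.000191), and the calls against hepatocytes and tissue had adjusted p of 4.69e-05 and 4.98e-05 (limma), with no size given against groups listed at 0.

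The background in these comparisons was high. Of 15657 genes tested, 26.3% were called in either direction against fibroblasts (11.4% higher), 48.9% against hepatocytes (41.3% higher, 7.54% lower) and 50.2% against tissue (42.3% higher, 7.94% lower). The count against fibroblasts leant on having both: 4123 genes were called, but 1604 without fibroblasts 1 and 1528 without fibroblasts 2, with all 5 keratins called each time. The median difference over all genes was 0.94 from hepatocytes and 0.96 from tissue, and 0.03 in both after median-ratio scaling. Scaling turned 6468 genes higher and 1181 lower against hepatocytes into 2397 and 2325, and 6624 and 1243 against tissue into 2354 and 2627. All 5 keratins were still called after scaling, with Krt8 at 3.08 and Krt18 at 2.59 from hepatocytes (adjusted p = 0.000915 and 0.000807, limma) and 2.81 and 2.26 from tissue.

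All hepatocytes and tissue were run on a flow cell of their own, so flow cell and liver cannot be told apart. Fibroblasts shared flow cell HH2TTALXX with hepatocyte-like libraries 3 and 4, and on that flow cell alone all 5 keratins were called, with Krt8 at 10.74, Krt18 at 9.67, Krt19 at 9.05, Krt20 at 6.74 and Krt7 at 5.46 (log2). Leaving out hepatocytes 1 and hepatic tissue 2, the pair listing Alb at 0, or the other pair, kept all 5 called against both liver groups; Krt8 then lay at 3.75 and 5.04 from hepatocytes and 3.41 and 4.97 from tissue.

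**Figure D3:**
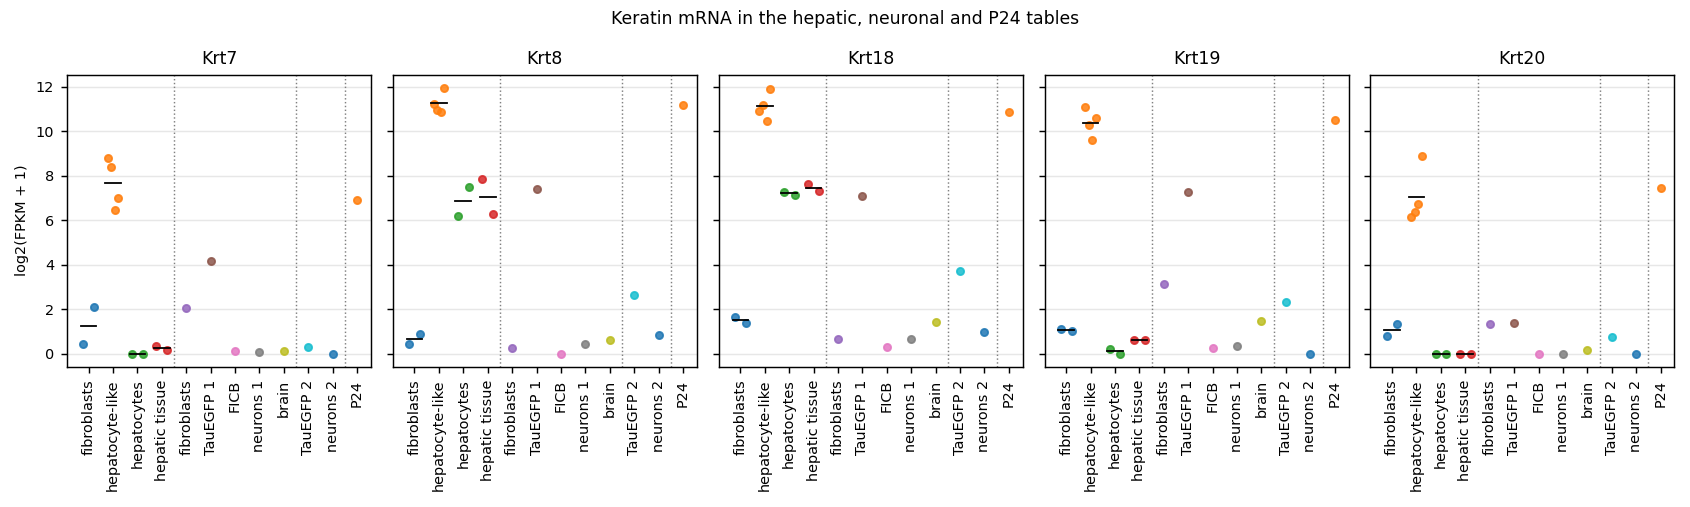
Levels of the 5 keratins in the hepatic, neuronal and P24 tables, as log2(FPKM + 1) on the vertical axis, 1 point per library, bars at the mean of groups with more than 1 library, and dotted lines between tables, whose values were normalised separately. All 4 hepatocyte-like libraries are above every hepatocyte, tissue and fibroblast library for each keratin, and among the neuronal libraries TauEGFP 1 and P24 stand high.

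The order by group mean was hepatocyte-like cells, tissue, hepatocytes and fibroblasts for Krt8 (2548, 152, 126 and 0.595 FPKM) and Krt18 (2368, 177, 146 and 1.87), and the tissue and hepatocyte libraries overlapped for Krt8. For Krt18 both tissue libraries (194 and 160) were above both hepatocyte libraries (152 and 140), a difference of hepatocytes from tissue of -0.27 (log2, 95% interval -1.22 to 0.68; adjusted p = 1, limma). For Krt19, Krt7 and Krt20 fibroblasts came next after hepatocyte-like cells, with 1.06, 1.81 and 1.12 FPKM, and the liver groups last.

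The pool of the 5 keratins summed to 4221 to 9884 FPKM in hepatocyte-like cells and 225 to 422 in the liver libraries. In the liver libraries Krt8 and Krt18 were nearly all of it, with Krt19 at most 0.225%. In hepatocyte-like cells Krt19 made up 15.5% to 30.9%, Krt7 1.27% to 6.40% and Krt20 1.01% to 4.79%. Library 1 had the highest shares of Krt19 and Krt7 and the lowest of Krt20, and library 4 the reverse. The ratio of Krt8 to Krt18 was 0.858 to 1.30 in hepatocyte-like cells. It was 0.479 in hepatocytes 1 and 0.480 in hepatic tissue 2, against 1.28 in hepatocytes 2 and 1.17 in hepatic tissue 1, so the ratio divided the liver libraries by the pairing seen for Alb and not by label. The processed pseudogene Krt8-ps, which can share reads with Krt8, reached 8.49 FPKM at most, a small part of the Krt8 level there.

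Markers of other epithelia moved with the keratins in hepatocyte-like cells. Of 8 intestinal and urothelial markers, 6 or 7 reached 1 FPKM in each hepatocyte-like library, with a summed level of 2349 to 5796 FPKM against 4.7 and 5.3 in fibroblasts and 1.6 to 17.1 in the liver libraries; most of it was Tff3, a secreted mucosal peptide, at 2072 to 5327 FPKM, and Lgals4 (228 to 893), Vil1 (23.7 to 94.8) and Cdx2 (6.53 to 35.3) were present, while Cdx1 was listed at 0 in 3 of 4. Of 8 cholangiocyte markers, 6 or 7 reached 1 FPKM (sum 635 to 1614 FPKM), carried by Cldn4 (334 to 1083) and Epcam (166 to 344), with Sox9, a defining factor of bile ducts, between 0.117 and 1.36. Fibroblasts had a larger sum in that list, 2962 and 3407 FPKM, almost all from Spp1. Of 8 stratified markers, 3 to 6 reached 1 FPKM (sum 53.7 to 121), with Trp63, a defining factor, at 0.770 or less. The share of these cell types in the keratin result was not tested.

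Hepatocyte markers were present as well: Alb lay at 1899, 4514, 58.5 and 266 FPKM and Apoa1, an apolipoprotein, at 4928, 1242, 1154 and 1503 in hepatocyte-like libraries 1 to 4. Of 8 hepatocyte markers 5 to 7 reached 1 FPKM, 6 were lower than in hepatocytes and none higher. Over all genes, 7.54% were called lower than in hepatocytes and 41.3% higher.

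Most genes of the related lists were also higher. Against fibroblasts, 17 of 18 adhesion and polarity genes were higher and none lower (median log2 difference 5.44 against 0.08 over all genes), led by Cldn4 (9.47), Epcam (7.75), Cldn7 (7.72) and Cldn6 (7.44), and Tjp1 was not called (0.09). Of epithelial transcription factors and splicing regulators 12 of 13 were higher, led by Elf3 (6.45), the splicing regulator Esrp1 (4.63) and Tfap2c (3.94), with Klf4 not called (1.501). Of 14 desmosome and hemidesmosome genes tested 9 were higher, including Dsg2 (5.17), Dsp (4.72), Ppl (4.64) and Dsc2 (4.32), and Dst was lower (-1.58), with a median of 2.66. Over all genes, 11.4% were called higher than in fibroblasts. Against hepatocytes the counts were 17 higher and 1 lower (Cldn3 at -2.06), 11 of 13 and 11 of 14, and the same numbers held against tissue. Over all genes, 41.3% were called higher than in hepatocytes and 42.3% higher than in tissue. After median-ratio scaling these were 2397 and 2354 of 15338 genes, but the lists were not recounted after it. Vim was lower than in fibroblasts (-3.90) and higher than in hepatocytes (4.83); it lay at 24.7 to 310 FPKM in hepatocyte-like cells, at 8.21 or less in the liver libraries and at 962 and 995.4 in fibroblasts.

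Other keratins were also called. Of 49 listed, 15 reached 1 FPKM in any library and 4 reached 10. Krt23 was at 164, 156, 51.6 and 44.0 FPKM, Krt14 at 35.8, 29.5, 11.7 and 9.83, and Krt80 at 19.2, 26.0, 5.34 and 8.74, and Krt78 reached 12.9 in library 1 alone. Of 9 other keratins tested 6 were higher than in fibroblasts, with Krt23 at 6.29 and Krt14 at 4.31 (log2), where 11.4% of all genes were. Against hepatocytes 7 were higher, where 41.3% of all genes were. Median-ratio scaling left 2397 of 15338 genes higher, but the other keratins were not recounted after it. Krt23 and Krt14 were higher in libraries 1 and 2 than in 3 and 4, as Krt7 was. Library 1 was run on flow cell HH2H2ALXX, library 2 on HCNYKALXX, and libraries 3 and 4 on HH2TTALXX. This split and flow cell cannot be told apart.

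Over the 10 hepatic libraries, among 9835 genes reaching 10 FPKM and again without the members, the nearest patterns to Krt19 were Sdcbp2 (0.999), Spint1 (0.999), Mal (0.998), Cldn4 (0.998) and Tspan8 (0.997), and to Krt7 Epn3 (0.993), Bspry (0.992), Elovl1 (0.992), Gipc2 (0.991) and Slc52a3 (0.990). Genes like Krt20 included Prr15 (0.993), Cyp2s1 (0.992), Clps (0.992) and Cdh17 (0.991). Krt8 and Krt18 had a correlation of 0.992 with each other. Krt8 had Crb3 (0.993), Kcnk5 (0.982), Proser2 (0.982), Dsg2 (0.982) and Mpzl2 (0.978), and Krt18 had Proser2 (0.990), Mpzl2 (0.985), Crb3 (0.985), Myo5b (0.984) and Abhd6 (0.978). As these libraries also form separate groups, these values too describe likeness across groups.

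**Figure D4:**
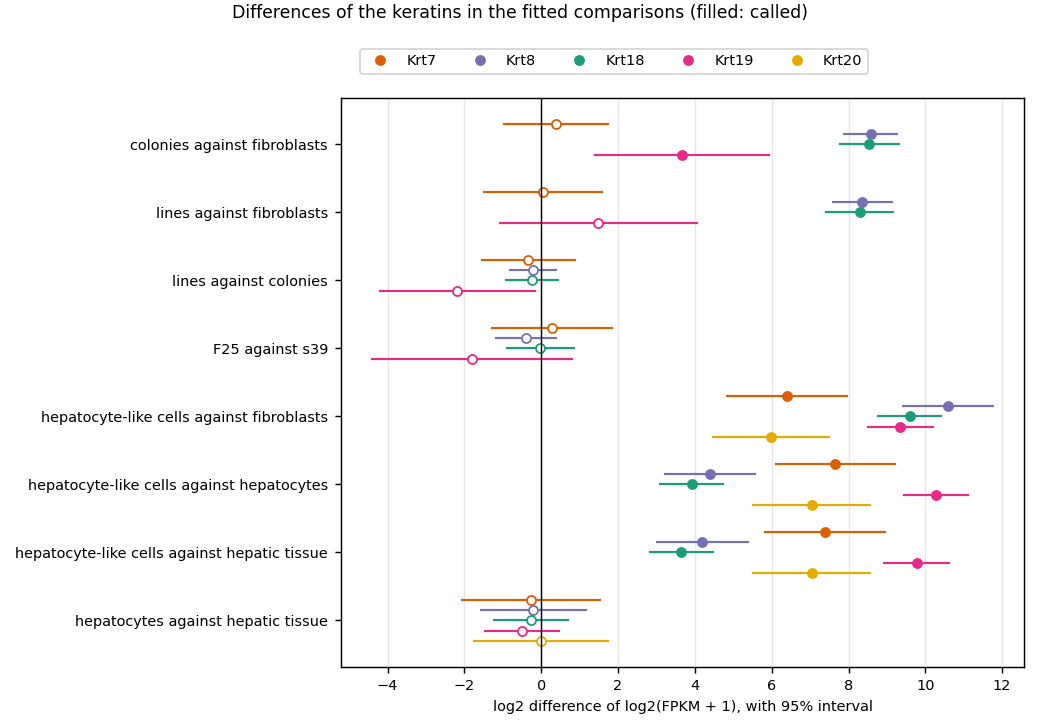
Fitted differences of log2(FPKM + 1) for each keratin in the 8 comparisons, with 95% intervals; filled points passed the call rule and open points did not, and values against groups listed at 0 (Krt20 and Krt7 against hepatocytes, Krt20 against tissue) depend on the pseudocount. Krt8 and Krt18 exceed 8 against fibroblasts in all 3 comparisons with them, and the 3 comparisons among lines and among liver groups have no filled point.

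Among the neuronal samples, simple keratins were high in TauEGFP 1 and in the library labelled P24. In its table, TauEGFP 1 listed Krt8 at 167, Krt18 at 134, Krt19 at 151, Krt7 at 17.1 and Krt20 at 1.62 FPKM. Fibroblasts of that table listed 0.176, 0.552, 7.72, 3.17 and 1.53 in the same order, and in brain, primary neurons 1 and the FICB cells none of the 5 exceeded 1.77 FPKM, the Krt19 level of brain. With 1 library a group there was no test. Krt20 in TauEGFP 1 did not stand above fibroblasts, while the other 4 were at least 5 times the next library.

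TauEGFP 2, in its own table with primary neurons 2, listed far lower values: Krt18 at 12.04, Krt8 at 5.15, Krt19 at 3.92, Krt20 at 0.672 and Krt7 at 0.236 FPKM. The library labelled primary neurons 2 listed 0.981, 0.791, 0, 0 and 0. Both TauEGFP libraries were above the primary neurons of their own table in all 5 keratins, but the pool summed to 471 FPKM in the first and 22.02 in the second. TauEGFP 1 also listed Epcam at 52.1, Cdh1 at 39.8, Cldn4 at 72.6 and Tff3 at 156 FPKM, and all 8 extraembryonic endoderm markers at 1 FPKM or more (sum 439 FPKM). TauEGFP 2 listed Epcam at 5.22, Cdh1 at 1.23 and Cldn4 at 0.217, and 6 of the 8 (sum 182 FPKM). Other libraries came near that endoderm sum. In the table of TauEGFP 1, fibroblasts had 3 of 8 (sum 191.5 FPKM) and FICB cells 6 of 8 (223). Brain and primary neurons 1 had 5 of 8 there (35.7 and 49.2), and primary neurons 2 had 3 of 8 (130.6). All 7 neuronal markers of the table reached 1 FPKM in both TauEGFP libraries, with Map2 at 93.3 and 107. All 8 fibroblast markers reached 1 FPKM in both, with sums of 1469 FPKM in TauEGFP 1 and 3959 in TauEGFP 2. The fibroblasts in the table of TauEGFP 1 had a sum of 4543. The part of epithelial, endoderm or fibroblast cells in these keratin levels was not tested. Of other keratins in TauEGFP 1, Krt23 (23.0), Krt6a (13.7) and Krt13 (10.3 FPKM) exceeded 10.

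For the members, the library labelled P24 had levels like those of the hepatocyte-like cells. It listed Krt8 at 2307, Krt18 at 1890, Krt19 at 1460, Krt20 at 175 and Krt7 at 119 FPKM. Each value lay within the range of the 4 hepatocyte-like libraries, which come from another table, so no test was made. Its Krt8 to Krt18 ratio was 1.22 and its shares of Krt19, Krt7 and Krt20 were 24.5%, 2.00% and 2.95%. It also listed Tff3 at 4724, Cldn4 at 744, Lgals4 at 788 and Vil1 at 100.3 FPKM, and Krt23 (109), Krt14 (40.5), Krt6a (26.2), Krt17 (17.8) and Krt16 (11.1). Other keratins differed in part: Krt6a, Krt17 and Krt16 reached 10 FPKM in no library of the hepatic table. Krt78 and Krt80 reached 10 FPKM there but not in P24. Of 7 neuronal markers, 2 reached 1 FPKM, with a sum of 7.1 FPKM, and 7 of 8 hepatocyte markers did, with a sum of 3173.

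**Figure D5:**
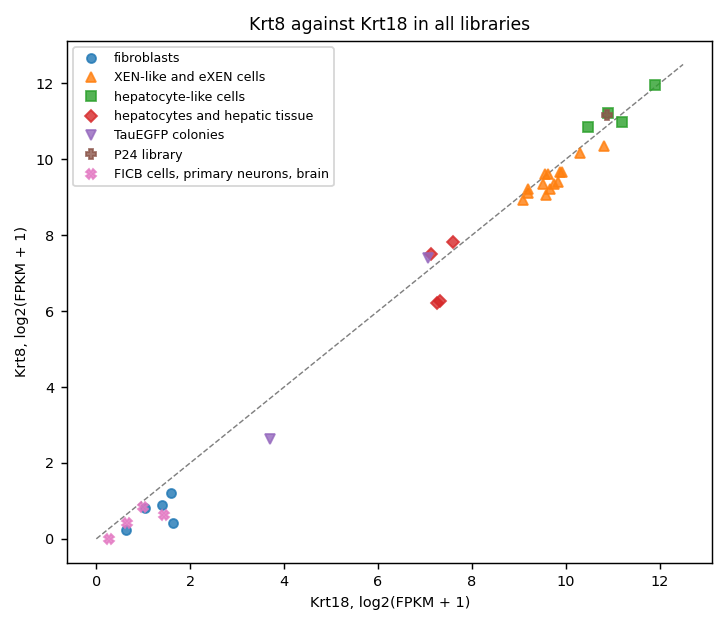
Krt8 against Krt18 in all 34 libraries, both as log2(FPKM + 1), with symbols by group and a dashed line of equality; tables were normalised separately. Libraries high in one are high in the other, up to hepatocyte-like library 4 (3955 and 3802 FPKM), and TauEGFP 2 (5.15 and 12.04 FPKM) lies below the line.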

How the data were processed

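All 34 mouse libraries were used. The authors deposited FPKM values, a unit stated in 1 table's header and judged from the values in 4 tables. TopHat2 and mm10 are named, without a version, per the submitters' processing notes; the counting tool is not given in the sources used here. Rows with a repeated identifier (118 in the hepatic and P24 tables, 99 in the first neuronal table) and 1 row with an empty cell were dropped.

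Groups, flow cells and passages followed the labels. Values were taken as log2(FPKM + 1), and genes at 1 FPKM or more in at least 2 libraries of a table entered models made in limma (version 3.58.1, R version 4.3.3) with a variance trend. For the XEN-like table, all 16 libraries entered 1 fit with a flow cell term (HJMKLALXX against HVN codes), where lines are the mean of the F25 and s39 means, and the 10 hepatic libraries entered another, without one. Tests were two-sided and p-values adjusted over all genes. They measure the spread between libraries, which may be technical. Passages of F25 and of s39 entered as separate libraries, so tests of lines do not measure the spread between independent lines. F25 against s39 has 1 line on each side. Counts and per-library depths were not given, so no interval or floor was computed from counts.

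The members and gene lists were chosen with earlier results of these data known. Beyond the members, the text names by rule up to 4 called members of a list with the largest differences and uncalled members, other keratins reaching 10 FPKM, and the 5 genes most similar in pattern; other genes were chosen after their values were seen, and some genes that the rule names are not reported here. The models were tested on simulated data. For colonies against fibroblasts 56%, 76%, 100% and 98% of 50 genes changed by 1.5, 2, 4 and 6 (log2) were recovered. For hepatocyte-like cells against fibroblasts these were 32%, 48%, 90% and 98%. The simulated noise was normal with the fitted spread of each gene, and far fewer genes were changed than were called in the data. Recovery in the data may therefore differ. Alternatives were a pseudocount of 0.1, no filter, median-ratio scaling, other flow cell treatments, a replicate block, and leaving out each library. Omitting either pair of liver libraries was added after seeing the data. Figures were drawn with matplotlib 3.10.9.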

Additional observations from a re-analysis of the deposited data

Results flagged for a closer look

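Krt19 in colony 6 was at 19.0 FPKM, far below the other 7 colonies, whose lowest was colony 1 at 237. On the log2(FPKM + 1) scale the gap to the nearest colony made up 0.743 of the whole range of the 8 colonies, above the limit of 0.526 for 8 samples, which chance passes in about 1 of 20 groups. In all, 9 pairs of a keratin and a group of 4 to 10 libraries were searched on that scale, and no other passed the limit for its size. The scale matters: on FPKM the same gap was 0.404 of the range and did not pass, while that of Krt20 in hepatocyte-like library 4 (473 FPKM against 104 or less) was 0.916 and passed the limit of 0.829 for 4 samples, which its 0.795 on the log2 scale did not. Without colony 6 the difference of Krt19 between colonies and fibroblasts was 4.06 (log2) in place of 3.67, with an adjusted p of 0.00125 (limma).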

How the results depend on the processing

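Of the results on single keratins under the alternatives, 626 kept direction and side of the threshold, 3 were no longer called and 16 changed sign. Krt20 in the XEN-like table was tested only without the filter and is not among these counts. There it was called lower than in fibroblasts in colonies (-1.63, adjusted p = 0.00533) and in lines (-1.29, adjusted p = 0.04, limma). Fibroblasts 2 listed it at 6.82 FPKM and fibroblasts 1 at 0.195. All calls of Krt8 and Krt18 were kept, as were those of all 5 keratins in the hepatic table. Krt19 in colonies against fibroblasts was no longer called on the HVN flow cells alone (1.36) or with the replicate block (3.72, adjusted p = 0.138), and ranged from 1.36 to 5.75 on leaving out single libraries. Krt19 in lines against fibroblasts ranged from -0.25 to 4.15, with -0.25 also on the HVN flow cells alone. All sign changes were in uncalled results, that of Krt19 in lines against fibroblasts among them. Krt7 in lines against fibroblasts gave -0.63 with a pseudocount of 0.1, -0.049 after median-ratio scaling and -0.51 without the flow cell term. Without single libraries it ranged from -0.25 to 0.49. Krt7 in colonies against fibroblasts gave -0.32 with the replicate block and -0.013 to 0.73 without single libraries. The others were Krt18 in F25 against s39 (-0.16 to 0.21) and Krt8 in hepatocytes against tissue (-0.98 to 0.57). The causes were not tested.

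Counts over all genes moved more. Colonies against fibroblasts gave 2661 on flow cell HJMKLALXX alone and 2032 with the replicate block, in place of 4854. The shared numbers do not pair the samples per the labels, with correlations of 0.264 and -0.2 between same-numbered deviations, and under the block, where only colonies 1 and 2 share a number with fibroblasts, Krt8 (8.48) and Krt18 (8.40) stayed called. Lines against colonies gave 130 on the HVN flow cells, 35 without the flow cell term and 5 to 45 without single libraries, in place of 12. F25 against s39 gave 201 on the HVN flow cells and 6 to 257 without single libraries, in place of 30. Hepatocyte-like cells against fibroblasts gave 1528 to 4362 without single libraries, against tissue 4981 after scaling, and against hepatocytes 4722 after scaling and 5082 without hepatocytes 1 and hepatic tissue 2. Hepatocytes against tissue gave 1 in the limma fit (334 at an unadjusted p under 0.05), 0 with a pseudocount of 0.1, 5 without the filter, 5 after scaling, 0 to 3 without single libraries, and 4 and 2 without either pair of liver libraries. Fits that left 1 library in a group assumed that it varied like the other groups.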

Other observations

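Hepatocyte-like libraries 1 and 2, which had the highest Krt7, also listed placental genes. Prl3d1, a placental lactogen, was at 32.7 and 50.1 FPKM there, at 0.153 in library 3 and listed at 0 in library 4 and all fibroblast and liver libraries. Tpbpa, a gene of the spongiotrophoblast, was at 19.8, 38.9, 4.93 and 4.07 in libraries 1 to 4 and at 0.0980 or less elsewhere in the table. Of 8 trophoblast markers 8, 8, 7 and 5 reached 1 FPKM in these libraries, and the summed level was 220.0, 261.9, 39.2 and 26.3 FPKM. In the same list fibroblasts 1 had 2 of 8 at 1 FPKM and a sum of 192.6 FPKM, fibroblasts 2 had 1 of 8 and 4.87, and the liver libraries had none and at most 0.269. These genes were chosen after their values were seen, and no relation to the keratins was tested. Flow cell also separated libraries 1 and 2 from libraries 3 and 4.

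Msln, the mesothelin gene of mesothelium and some other epithelia, was at 447, 285, 180 and 93.7 FPKM in the same libraries, against at most 13.2 in the other libraries of the table. Upk3b was near 3 FPKM in all 4, and Wt1 was listed at 0 in libraries 1 and 2.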
